A study of Bombus terrestris with 8 samples.

Results

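The microRNAs (miRNAs) bte-mir-9a, bte-mir-306 and bte-mir-315 are 3 of the 65 entries in the list of mature sequences that were sequenced from larvae of the bumblebee Bombus terrestris. They were grouped by name, because their fly counterparts are known for roles in imaginal discs, sensory organs and the wing. The rule uses names only, but it was set with earlier results of these data known. All 3 had counts in every library, and all passed the filter on low counts. The libraries come from whole bodies of worker-destined diploid larvae, and every group is of this caste and sex. Early larvae were in the first and the second instars, and late larvae were in the fourth instar. Larvae of the same stage and colony were pooled, which gave 4 early and 4 late small RNA libraries. The study took 2 libraries from each of 4 colonies, but the labels do not say which colony stands behind which replicate number.

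A miRNA is cut from a hairpin precursor and guides the silencing machinery to messenger RNAs, mainly by pairing through its seed, bases 2 to 8 from the 5′ end. In Drosophila, mir-9a limits the level of Senseless, a proneural factor, and thereby the number of sensory organ precursors, and it also dampens dLMO, a regulator of the wing margin. Drosophila mir-315 is known as an activator of Wingless signaling that acts on the negative regulators Axin and Notum. Drosophila mir-306 lies in a cluster with members of the mir-9 family inside an intron of the checkpoint kinase gene grapes, and the study's manual annotation likewise places bte-mir-306 with a mir-9b and a mir-79 in an intron of the B. terrestris homolog of that gene. The targets in bees were not measured here.

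The mature sequences are shown because the seed decides what a miRNA can pair with, and because they show which listed miRNAs could share targets or reads with these 3. They are given 5′ to 3′ in the DNA letters of the deposited list, with the seed in capitals.
bte-mir-9a: tCTTTGGTtatctagctgtatga
bte-mir-315: tTTTGATTgttgctcagaaagcc
bte-mir-306: tCAGGTACtgagtgactctgag
No pair of the 3 shared a seed. The seeds of bte-mir-9a and bte-mir-315 occurred in no other listed mature sequence at any position. The DNA letters that pair with the seeds in full are ACCAAAG for bte-mir-9a, AATCAAA for bte-mir-315 and GTACCTG for bte-mir-306.

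The seed of bte-mir-306 was carried by 1 other entry, bte-mir-275, and the same letters stood inside bte-mir-12. In the lines that follow the capitals mark the seed of bte-mir-275 and the longest stretch that bte-mir-12 shared with bte-mir-306.
bte-mir-275: tCAGGTACctgaagtagcgcgcg
bte-mir-12: tgagtattacaTCAGGTACTGgt
bte-mir-275 matched bte-mir-306 over its first 8 bases. In bte-mir-12 the shared stretch of 10 bases began at base 12, outside the seed, whereas in bte-mir-306 it began at base 1. Among the 2016 pairs of distinct mature sequences in the list, 15 (0.744%) shared a stretch of 8 or more bases, and the median was 4 bases. The count cells of bte-mir-275 were blank for 7 libraries, and late replicate 4 alone gave a number, 355 reads, beside 189 reads of bte-mir-306. Whether reads of bte-mir-275 and bte-mir-306 were separated by the counting was not tested, and bte-mir-275 entered neither totals nor tests.

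The 3 precursors lay on different scaffolds of the assembly Bter_1.0, each with no other listed entry on its scaffold. bte-mir-9a was listed on Group1.3 from 3684166 to 3684240 on the plus strand. bte-mir-315 was on Group2.3 from 5087592 to 5087664 on the minus strand, and bte-mir-306 was on Group15.5 from 1390034 to 1390107 on the minus strand. All 3 had been predicted with miRCat, the authors' program for finding hairpins around stacks of small RNA reads. The mir-9b and mir-79 that the manual annotation names beside bte-mir-306 were looked for in the list by name and were absent. Whether they changed with bte-mir-306 could therefore not be examined. The precursors are shown because they place the mature sequence, in capitals, in its hairpin.
bte-mir-9a precursor: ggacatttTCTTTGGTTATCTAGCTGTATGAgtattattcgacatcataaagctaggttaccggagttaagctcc
bte-mir-315 precursor: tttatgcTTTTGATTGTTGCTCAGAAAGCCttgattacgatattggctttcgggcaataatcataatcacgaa
bte-mir-306 precursor: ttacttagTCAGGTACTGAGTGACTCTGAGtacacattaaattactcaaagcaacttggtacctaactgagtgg
All 3 mature sequences were on the 5p arm, which was true of 23 of the 65 entries (35.4%), and all 3 began with the letter T, as did 42 entries. No 3p arm of these hairpins was listed, so the use of the arms could not be compared. The predicted folding energy was −27.9 kcal/mol for bte-mir-9a, −26.1 kcal/mol for bte-mir-315 and −32.2 kcal/mol for bte-mir-306, all weaker than the median of −34 over the list. The energies were not adjusted for length. These precursors had 75, 73 and 74 bases, and the list held longer ones, such as bte-mir-750 with 127 bases. Of the mature bases, 20 of 23 were paired in bte-mir-9a, 21 of 23 in bte-mir-315 and 18 of 22 in bte-mir-306.

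**Figure D1:**
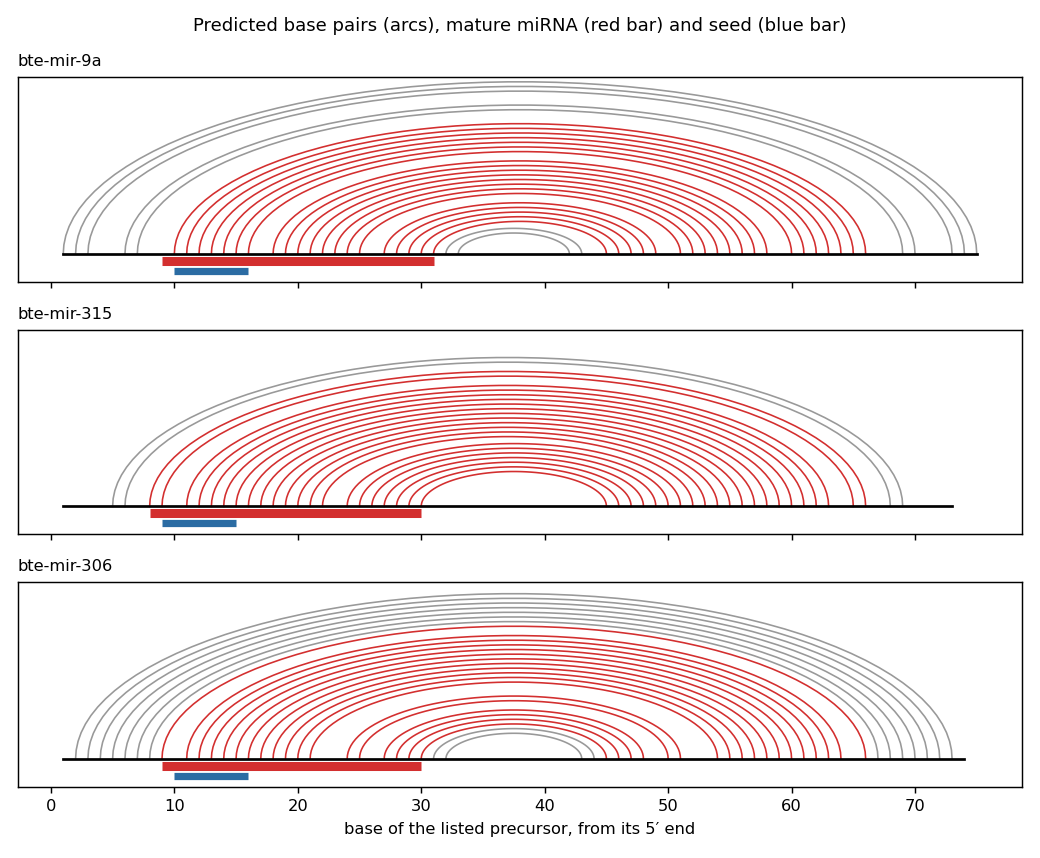
Predicted pairing in the 3 precursors, with the base number from the 5′ end on the horizontal axis and each arc joining 2 paired bases. Red arcs and the red bar mark the mature miRNA, which lies on the 5p side in all 3, and the blue bar marks its seed; grey arcs are pairs outside the mature miRNA.

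These are abundant miRNAs. The list held between 204223 and 502540 reads in an early library and between 45649 and 257161 in a late library, and bte-mir-1, a muscle miRNA in flies, led in each. Over all libraries bte-mir-9a had 183615 reads (8.93% of the listed reads) and ranked 3 of 63 distinct sequences, between bte-mir-184 with 350755 and bte-mir-276 with 154438. bte-mir-315 had 48854 reads (2.38%) and ranked 9, just under bte-mir-750 with 48936. bte-mir-306 had 18362 reads (0.893%) and ranked 11, between MC1917 with 19999 and bte-mir-12 with 13839. The order bte-mir-9a, bte-mir-315, bte-mir-306 was the same in every library. bte-mir-9a ranked 3 in every early library and 3, 5, 4 and 5 in late replicates 1 to 4. bte-mir-306 ranked 10 in every early library and 14, 13, 11 and 15 in the late ones, all below its early place. bte-mir-315 ranked 8 or 9 in early libraries and 9 or 10 in late ones. Together they took 13.6% ± 0.979 (SD, n = 4) of the listed reads early and 7.51% ± 1.39 (SD, n = 4) late.

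All 3 miRNAs had lower values in late larvae, and of the 3 only bte-mir-306 passed the test across all miRNAs. bte-mir-306 fell to 53.7% of its early level. The fitted late level was 66.0% of the early level for bte-mir-9a and 71.6% for bte-mir-315, and neither of these differences passed. In whole bodies, fewer cells that make a miRNA and less of it per cell cannot be told apart. The values are given as raw reads and as CPM, counts scaled to a common library size. The CPM were scaled by the trimmed mean of M values (TMM), which is meant to make libraries of unequal depth and composition comparable. How far the results depend on this scaling is described below. Both CPM and shares remain relative to the listed reads, so a rise of other abundant miRNAs can lower them. bte-mir-184, next above bte-mir-9a by total, had a mean of 139269 CPM early and 292656 CPM late. It was among 12 of the 62 tested miRNAs that passed as higher in late larvae, against 8 that passed as lower. What this rise contributed to the values of the 3 was not tested.

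Early replicates 1 to 4 held 5420, 5313, 2194 and 2729 reads of bte-mir-306, and late replicates 1 to 4 held 1081, 833, 603 and 189. Its normalized abundance was 9284, 9234, 9622 and 10692 CPM in the early libraries, and 4800, 6795, 5520 and 3712 CPM in the late libraries. The 4 early libraries lay close together and the stages did not overlap, since the lowest early value was 1.36 times the highest late value. The means were 9708 ± 678 CPM (SD, n = 4) and 5206 ± 1294 CPM (SD, n = 4). Late larvae thus differed from early larvae by −0.90 on the log2 scale (standard error 0.24; adjusted p = 0.0129, edgeR's quasi-likelihood test, adjusted after Benjamini and Hochberg over the 62 miRNAs tested). As a share of listed reads, bte-mir-306 held 1.05% ± 0.0387 (SD, n = 4) among early libraries and 0.474% ± 0.0805 (SD, n = 4) among late libraries. The library with the fewest reads, late replicate 4, gave a share of 0.414% with a 95% Clopper-Pearson interval of 0.357 to 0.477, which covers counting error only.

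Early replicates 1 to 4 held 55015, 47401, 18964 and 27705 reads of bte-mir-9a, and late replicates 1 to 4 held 17692, 7681, 7442 and 1715. Its normalized abundance was 94235, 82382, 83166 and 108546 CPM in the early libraries, and 78556, 62654, 68120 and 33679 CPM in the late libraries. The stages did not overlap, but only narrowly, because the lowest early value was 1.05 times the highest late value, and late replicate 4 lay far below the other late libraries. The means were 92082 ± 12238 CPM (SD, n = 4) and 60752 ± 19217 CPM (SD, n = 4). The log2 fold change was −0.60 (standard error 0.24, edgeR adjusted p = 0.0691), and it was −0.40 (edgeR adjusted p = 0.0619) without late replicate 4. Its share of listed reads was 9.94% ± 0.761 (SD, n = 4) among early libraries and 5.47% ± 1.30 (SD, n = 4) among late libraries.

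Early replicates 1 to 4 held 13852, 14384, 4212 and 7189 reads of bte-mir-315, and late replicates 1 to 4 held 4690, 1763, 2023 and 741. Its normalized abundance was 23727, 24999, 18472 and 28166 CPM in the early libraries, and 20824, 14381, 18518 and 14552 CPM in the late libraries. Here the stages overlapped, because early replicate 3 lay below late replicates 1 and 3. The means were 23841 ± 4037 CPM (SD, n = 4) and 17069 ± 3150 CPM (SD, n = 4), which differ by −0.48 on the log2 scale (standard error 0.22; edgeR adjusted p = 0.104). Its share of listed reads was 2.58% ± 0.356 (SD, n = 4) among early libraries and 1.57% ± 0.241 (SD, n = 4) among late libraries, and by this measure the stages did not overlap.

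**Figure D2:**
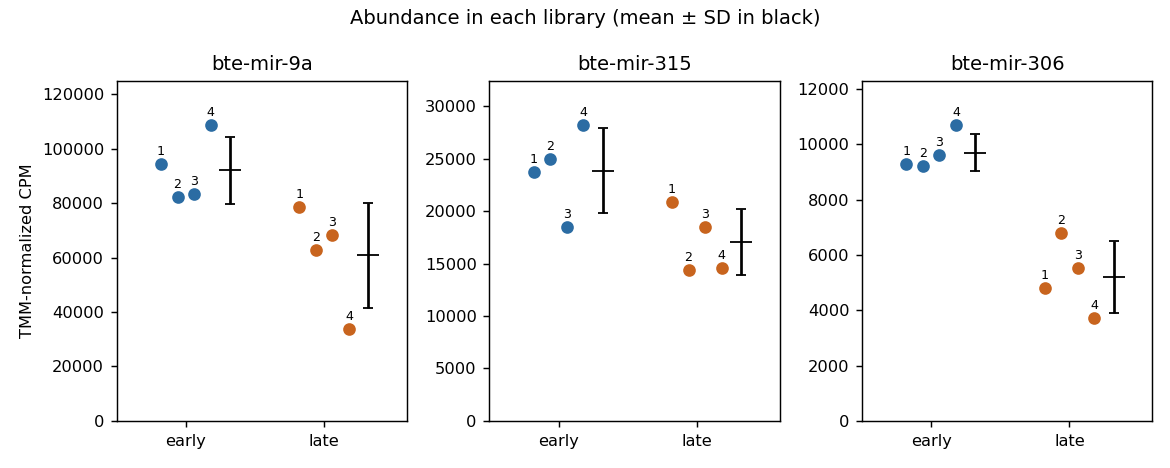
TMM-normalized abundance (CPM, from 0) of each miRNA in the 4 early (blue) and the 4 late (orange) libraries, with replicate numbers above the points and the mean ± SD in black. The late points of bte-mir-9a and bte-mir-306 all lie below the early points, whereas for bte-mir-315 early replicate 3 (18472 CPM) falls among the late values.

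The spread between replicates was wider than counting error in each stage. In early larvae the coefficient of variation of the CPM was 6.99% for bte-mir-306, 13.3% for bte-mir-9a and 16.9% for bte-mir-315, where counting alone gave at most 2.13%, 0.726% and 1.54% in a single library. In late larvae it was 24.8%, 31.6% and 18.5%, against counting errors of at most 7.27%, 2.41% and 3.67%. The medians over the 30 miRNAs with at least 1000 reads were 13.0% in early larvae and 33.5% in late larvae, so the wider spread in late larvae was shared by the list, and bte-mir-315 varied about as much in both stages.

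Against the whole list these shifts were moderate. Of the 62 miRNAs tested, 20 (32.3%) had an adjusted p under 0.05 in edgeR's test, and 8 (12.9%) were called and lower in late larvae, among them 1 of the 3 miRNAs here. This background depends on single libraries, since without late replicate 1 the test called 20 of the 62 lower, all 3 miRNAs among them. All late CPM lay below all early CPM for 12 of the 62 (19.4%), among them bte-mir-9a and bte-mir-306. By the share of listed reads this held for 16 of the 62 (25.8%), among them all 3. Counted from the most negative, the log2 fold change of bte-mir-306 ranked 12, that of bte-mir-9a ranked 18 and that of bte-mir-315 ranked 20. With TMM scaling the 62 miRNAs had a median of 0.18 on this scale, and relative to it the changes were −1.08 for bte-mir-306, −0.78 for bte-mir-9a and −0.67 for bte-mir-315.

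**Figure D3:**
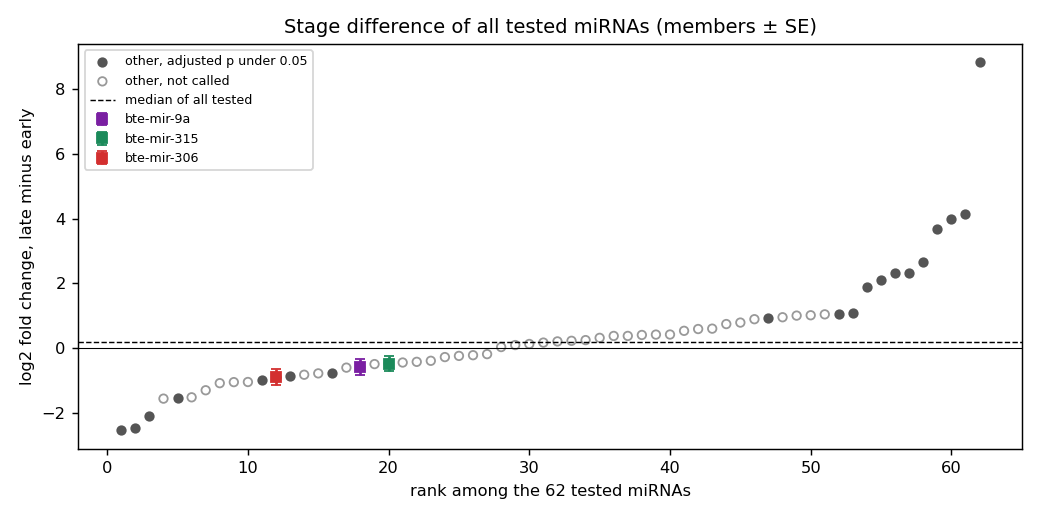
Log2 fold change between late and early larvae (vertical axis) for the 62 tested miRNAs in order of size (horizontal axis); filled grey points had an adjusted p under 0.05, the dashed line is the median of 0.18, and the colored squares with standard errors are the 3 miRNAs. The squares sit at ranks 12, 18 and 20, in the negative part but not at its end; the highest point is a fit to a miRNA nearly without early reads and is no measure of its fold.

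Whether the differences of bte-mir-9a and bte-mir-315 passed depended on the fit, including the scaling and the libraries kept. In 13 alternative fits the log2 fold change of all 3 was negative every time. bte-mir-306 passed 0.05 in all 13, with an adjusted p from 1.53e-08 to 0.0373 (edgeR or DESeq2). bte-mir-9a passed in 6 of them (0.000255 to 0.180) and bte-mir-315 in 2 (0.00376 to 0.237). With scaling by the listed total, which sets the median of all miRNAs at −0.09, 25 of the 62 passed, 14 of them lower, and all 3 were among these, at log2 fold changes of −1.15 for bte-mir-306 (edgeR adjusted p = 0.000762), −0.86 for bte-mir-9a (0.00232) and −0.72 for bte-mir-315 (0.00989). Single libraries mattered too. Without late replicate 1 the values were −1.35, −1.25 and −1.02, all called in a fit that called 29 of the 62 (20 lower and 9 higher), and without early replicate 2 they were −1.34, −1.06 and −0.83, of which the first 2 were called in a fit that called 16 (11 lower and 5 higher). In these fits the median of all miRNAs moved along, to −0.51 and −0.26. Relative to the median of each fit, the range over the 13 fits was −1.13 to −0.84 for bte-mir-306, −0.80 to −0.68 for bte-mir-9a and −0.73 to −0.48 for bte-mir-315.

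**Figure D4:**
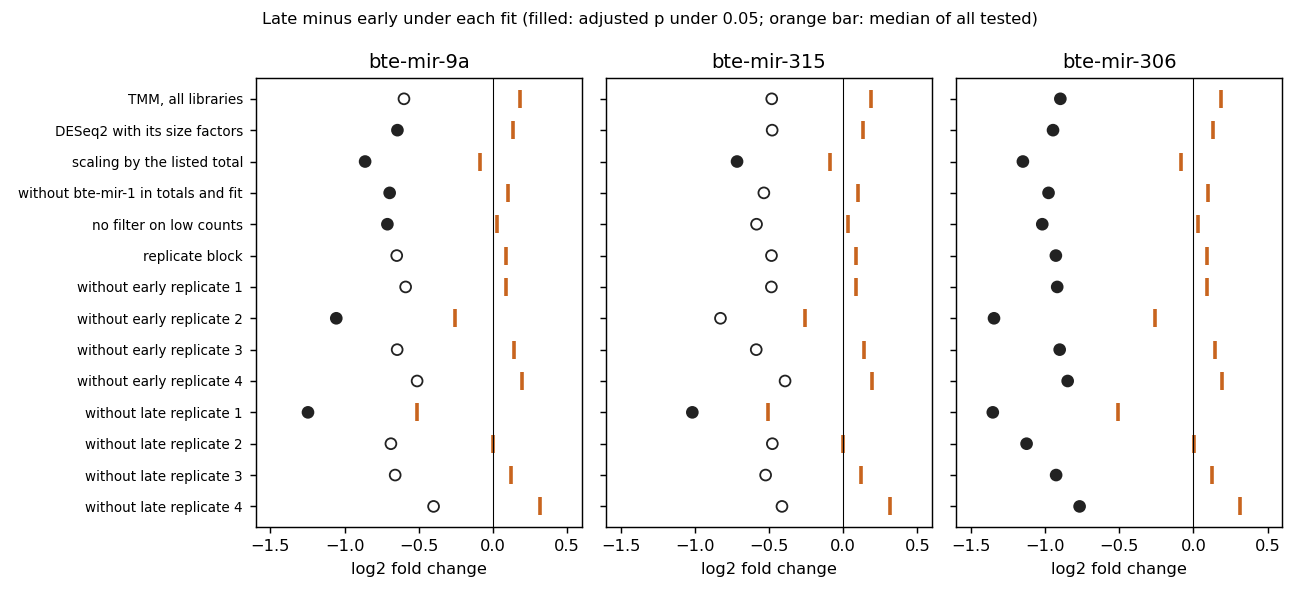
Log2 fold change between late and early larvae (horizontal axis) of each miRNA in the fit with TMM and all libraries (top line) and in 13 alternative fits; filled circles had an adjusted p under 0.05 and orange bars give the median of all tested miRNAs. The circles of bte-mir-306 are filled throughout, from −1.35 to −0.77, while those of the other 2 are filled only in some fits, and circles and bars shift together when early replicate 2 or late replicate 1 is left out.

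Whether the 3 changed together was asked with ratios of raw counts within a library, on which the scaling between libraries has no bearing. None of the 3 differences between the stages passed the exact permutation test. Of the differences, 2 exceeded the SD of the early libraries, but each of the 3 was smaller than the SD of the late libraries. Equal change was not shown by these tests, since the intervals are wide.

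For each 100 reads of bte-mir-9a early replicates 1 to 4 held 9.85, 11.2, 11.6 and 9.85 reads of bte-mir-306, and late replicates 1 to 4 held 6.11, 10.8, 8.10 and 11.0. Late replicates 2 and 4 lay within the early range and late replicates 1 and 3 lay below it. The mean log2 ratio was −3.24 ± 0.12 (SD, n = 4) among early libraries and −3.51 ± 0.40 (SD, n = 4) among late libraries. The difference was −0.27 (two-sided exact permutation test, p = 0.286; 95% interval from the same test −0.92 to 0.165), and it was −0.10 without late replicate 1.

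For each 100 reads of bte-mir-9a early replicates 1 to 4 held 25.2, 30.3, 22.2 and 25.9 reads of bte-mir-315, and late replicates 1 to 4 held 26.5, 23.0, 27.2 and 43.2. Late replicate 4, with the fewest reads, lay above all other libraries, and the other late libraries lay within the early range. The mean log2 ratio was −1.96 ± 0.19 (SD, n = 4) among early libraries and −1.78 ± 0.40 (SD, n = 4) among late libraries. The difference of 0.17 (two-sided exact permutation test, p = 0.543; interval −0.40 to 0.96) turned to −0.016 without late replicate 4.

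For each 100 reads of bte-mir-306 early replicates 1 to 4 held 256, 271, 192 and 263 reads of bte-mir-315, and late replicates 1 to 4 held 434, 212, 335 and 392. Late replicates 1, 3 and 4 lay above every early library, whereas late replicate 2 lay within the early range. The mean log2 ratio was 1.28 ± 0.23 (SD, n = 4) in early larvae, where early replicate 3 stood apart, and 1.73 ± 0.46 (SD, n = 4) in late larvae. The difference was 0.45 (two-sided exact permutation test, p = 0.143; interval −0.355 to 1.175). Without late replicate 2 it was 0.66 (two-sided exact permutation test, p = 0.0286), which is past 0.05 before any adjustment for the 3 ratios. Leaving out the only late library within the early range necessarily separated the stages. It was the only 1 of 10 alternatives that passed for this ratio, so no conclusion is drawn from it.

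After Benjamini-Hochberg adjustment over these 3 ratios the p-values were 0.429 for bte-mir-306 to bte-mir-9a, 0.543 for bte-mir-315 to bte-mir-9a and 0.429 for bte-mir-315 to bte-mir-306 (exact permutation tests). The smallest p that 4 against 4 libraries allow is 0.0286. Early and late libraries overlapped in all 3 ratios. Over all 1891 pairs of the 62 tested miRNAs, 657 ratios (34.7%) did not overlap between the stages.

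**Figure D5:**
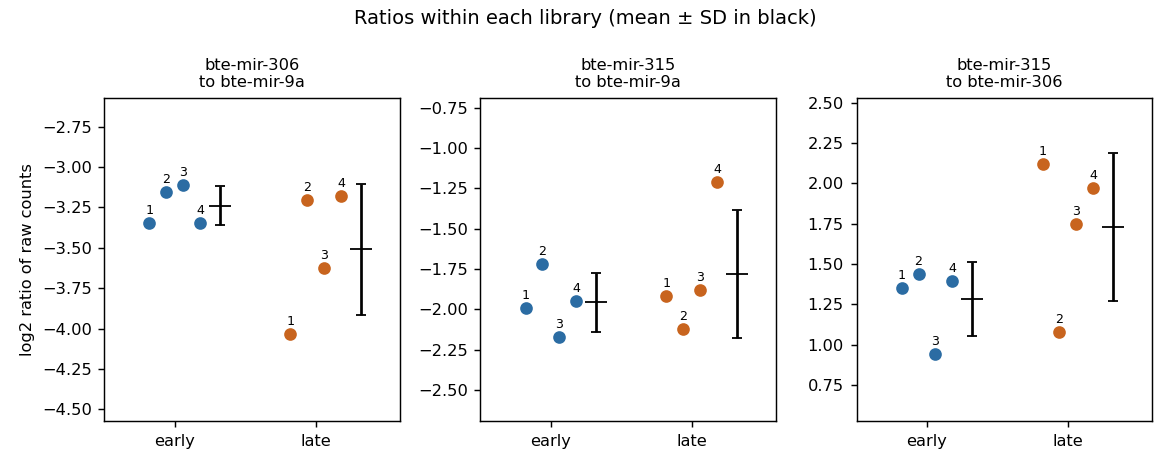
Log2 ratio of raw counts within each library for the 3 pairs, in early (blue) and late (orange) libraries, with replicate numbers above the points and the mean ± SD in black; each panel spans the same range of 2 log2 units. Early and late points overlap in every panel, and late larvae spread more widely (SD 0.40 to 0.46) than early larvae (SD 0.12 to 0.23).

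Within a stage, deviations from the mean log2 CPM were shared by the 3 in some libraries and not in others. Some of them depended on the scaling of the libraries. Late replicate 4 was below the mean of the late libraries in all 3, by 0.78 for bte-mir-9a, 0.45 for bte-mir-306 and 0.21 for bte-mir-315 on the log2 CPM scale. By share of listed reads it was below the late mean for bte-mir-9a (3.76% against 5.47%) and bte-mir-306 (0.414% against 0.474%). For bte-mir-315 its share was above the late mean (1.62% against 1.57%). On the log2 CPM scale, late replicate 2 was above the mean of the late libraries for bte-mir-306 (0.42) and bte-mir-9a (0.11), and bte-mir-315 was at −0.23. The share of bte-mir-9a in late replicate 2, 5.42%, was just below its late mean. In early larvae, replicate 4 was the highest for each of the 3 by CPM, at 0.25, 0.14 and 0.26 above the mean. By share of listed reads it was the highest for none of them. bte-mir-9a held 10.1% there and 11.0% in early replicate 1, and bte-mir-315 held 2.62% there and 2.86% in early replicate 2. The share of bte-mir-306 in early replicate 4, 0.995%, was its lowest early share. Early replicate 3 was low for bte-mir-315 (−0.35 on the log2 CPM scale), while bte-mir-306 was at −0.01.

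Likeness to other miRNAs was described by Pearson's r of log2 CPM over the 8 libraries, among the 49 others with at least 100 reads. The 8 points share the split into stages and the scaling of each library, so r is a description only. The profiles most like bte-mir-9a were those of MC848 (r = 0.97, 133 reads), bte-mir-3785 (0.93) and bte-bantam (0.92), with bte-mir-306 at 0.83 and bte-mir-315 at 0.82. Those most like bte-mir-306 were bte-mir-993 (0.96), bte-bantam (0.93) and bte-mir-2-1 (0.93). For bte-mir-315 they were bte-mir-9a itself (0.82), bte-mir-2944 (0.79) and bte-mir-993 (0.78), and bte-mir-306 followed at 0.67. Only bte-mir-315 thus had another of the 3 as its nearest profile.

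Other miRNAs known in flies for discs, wing, eye or sensory organs included calls in both directions. Of 16 looked for, 9 were in the list, and their median log2 fold change was 0.42, against 0.18 for all tested miRNAs and −0.60 for bte-mir-9a, bte-mir-306 and bte-mir-315. Of the 9, 1 was called lower, 1 was called higher and 7 were not called, against 20 called (32.3%) of the 62 miRNAs tested, 8 lower and 12 higher. bte-bantam, which promotes growth and blocks cell death in fly discs, fell by 0.86 on the log2 scale (edgeR adjusted p = 0.0129), with 49993 ± 1983 CPM early and 27451 ± 8196 CPM late (SD, n = 4 each). This is close to the value of bte-mir-306. bte-let-7, a timer of the change from larva to adult in flies, rose by 1.05 on the log2 scale (edgeR adjusted p = 0.0181), with 2126 ± 677 CPM early and 4387 ± 1550 CPM late (SD, n = 4 each).

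The other 7 did not pass, and only their values are given. bte-mir-8, which restrains Wingless signaling in flies, had the most reads of the 9, 121055, and a log2 fold change of 0.42 (edgeR adjusted p = 0.0927). bte-mir-12, which acts on Hedgehog pathway genes in fly wing discs and shares the stretch shown above with bte-mir-306, had 1.00 (edgeR adjusted p = 0.0637), opposite in sign to bte-mir-306. bte-mir-7, which acts on the Notch target genes of the Enhancer of split complex in flies, had −0.45. The sensory organ miRNAs bte-mir-279a and bte-mir-996 had 0.60 and −0.61, bte-mir-125, a neighbor of let-7 in flies, had 0.89, and bte-mir-iab-4, which acts on the Hox gene Ultrabithorax in flies, had 0.22.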

How the data were processed

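Small RNA was sequenced in 8 libraries whose 3′ adaptor ended in degenerate bases. After mapping all libraries as 1 set to the genome, the authors predicted precursors with miRCat or kept them by conservation, and deposited raw read counts per mature sequence and library, neither normalized nor pooled. The aligner, the allowed mismatches, the handling of end variants and the use of degenerate bases to remove duplicate reads are not given in the sources used here, and each could change every count. Count columns were matched to libraries by stage initials and number, with 0 left unmatched.

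The entry with blank cells (bte-mir-275) was left out, and the sequence shared by 2 loci was counted once. Counts were tested with edgeR 4.0.16 (R 4.3.3; TMM, quasi-likelihood, stage as the only term, all 8 libraries) across 62 miRNAs with at least 10 reads in all, with Benjamini-Hochberg adjustment and a threshold of 0.05. Standard errors were taken as the absolute log2 fold change over the root of the F statistic. Ratios used a pseudocount of 0.5 and two-sided exact permutation tests, inverted for 95% intervals. Precursors were folded with RNAfold 2.7.2. Python 3.11.15, pandas 2.3.3 and SciPy 1.17.1 were used, and the tests were tried on simulated data. Alternatives were DESeq2 1.42.0, scaling by the listed total, a fit without bte-mir-1, no filter, the replicate number as a block, a pseudocount of 5, and each library left out. The miRNAs named are the 3, listed sequences with their seed, the fly patterning list, the 3 closest profiles of each and neighbors by total; bte-mir-1 is named for the scaling. These members and lists were chosen with earlier results of these data known.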

Additional observations from a re-analysis of the deposited data

Results flagged for a closer look

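In early larvae the log2 ratio of bte-mir-315 to bte-mir-306 was 0.94 in replicate 3, while the other 3 early libraries lay between 1.35 and 1.44. The gap to the nearest library was 0.832 of the range of the group, just above Dixon's critical value for 4 samples at the 95% level. It was the only such case among 12 groups of 4 libraries examined. Chance flags about 1 in 20 groups, so a single case among 12 is near what chance gives. In this library bte-mir-315 was at its lowest early abundance (18472 CPM), and without it the difference between stages in this ratio was 0.33 in place of 0.45. The cause was not tested.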

How the results depend on the processing

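bte-mir-306 kept its direction and its call in all 13 alternative fits. The log2 fold change of bte-mir-9a passed 0.05 with DESeq2 (−0.64), with scaling by the listed total (−0.86), without bte-mir-1 (−0.70) and without a filter (−0.71), and with libraries left out in turn it ranged from −1.25 to −0.40. That of bte-mir-315 passed with scaling by the listed total (−0.72) and ranged from −1.02 to −0.39 with libraries left out. The number of called miRNAs was 15 to 29 over the 13 fits, against 20, and the split of 8 lower and 12 higher became 13 and 12 with DESeq2 and 14 and 11 with scaling by the listed total, 20 and 9 without late replicate 1 and 11 and 5 without early replicate 2. With libraries left out, the difference in log2 ratio ranged from −0.016 to 0.289 for bte-mir-315 to bte-mir-9a and from 0.32 to 0.66 for bte-mir-315 to bte-mir-306; a pseudocount of 5 moved no ratio across 0.05. The causes were not tested. Same-numbered early and late libraries did not deviate together (r from −0.12 to 0.07 across 62 miRNAs), and 1 of 4 early libraries correlated best with its own number, so these values do not show that the numbers pair the libraries, and the labels do not settle it. With the replicate block the log2 fold changes were −0.93 for bte-mir-306, −0.65 for bte-mir-9a and −0.48 for bte-mir-315, with no change of a call, and 18 miRNAs were called; for the ratios 4 pairs allow no p under 0.125. Depth limits late replicate 4 most, where 3 counts amount to 65.7 CPM.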
